A study of Homo sapiens with 9 samples.

Results

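The genes described here are the amino acid carriers of 7 solute carrier families, SLC1, SLC3, SLC6, SLC7, SLC36, SLC38 and SLC43. Every gene of the expression table whose symbol is one of these family names followed by A and a number was taken, whatever its level, which gave 52 of 22587 genes. They comprise 6 genes of SLC1, 2 of SLC3, 17 of SLC6, 11 of SLC7, 2 of SLC36, 11 of SLC38 and 3 of SLC43. RNA was sequenced from HepG2 cells, an established human liver tumour line, in 3 groups of 3 libraries. One group had glutamine (Gln) supplied, its treatment label naming a GlutaMAX supplement, a stabilised dipeptide form of Gln. The other groups were kept in Gln-free DMEM for 12 h or for 24 h, in medium exchanged a day after seeding. The protocol text places GlutaMAX in the Gln-free medium of the deprivation experiment instead, so what the deprived cells received is described in conflicting ways, and it is not stated whether the cells with Gln had their medium exchanged or when they were harvested. All groups are cultures of the same line, no allele or other agent is named for any of them, and nothing says that the libraries of a group came from separate cultures, so p-values measure the spread between these libraries.

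Amino acid carriers move amino acids across the plasma membrane or out of lysosomes. Sodium-driven carriers of the SLC1, SLC6 and SLC38 families concentrate their substrates in the cell, whereas many SLC7 proteins are exchangers that trade an amino acid inside for another outside. The SLC7 light chains reach the membrane bound to a heavy chain, SLC3A2 or SLC3A1. Gln enters mainly through SLC1A5 and the system A and N carriers of SLC38, and its intracellular pool is spent by exchangers to bring in large neutral amino acids. Shortage of amino acids is known to activate the kinase GCN2 and translation of the transcription factor ATF4, which binds the C/EBP-ATF response element in the regulatory regions of several carrier genes. In a sample of bulk RNA, a lower level cannot be told apart from fewer cells that express the gene.

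The start sites of the carriers were read from RefSeq promoter windows, 250 bases before to 50 bases after a start, on GRCh38.p14. A window was given for 40 of the 52 carriers, 61 windows in all. The core of the C/EBP-ATF response element, searched as TGATGNAAN on both strands, was found in a window of 6 of these 40 carriers (15%), against 4.45% of the 27305 genes with a window. Counted over windows, the letters occurred in 9.84% of the 61 windows of the carriers and in 3.61% of 35116 windows. The 5 windows below belong to the carriers that hold the letters and passed the abundance filter. The core stands in capitals, and each sequence runs 5′ to 3′ on the strand of its gene. The window of SLC1A5 is chr19:46784765-46785064 on the minus strand, with the core 97 bases before an internal start site. That of SLC38A1 is chr12:46266467-46266766 on the minus strand, with the core 4 bases before an internal start. That of SLC1A4 is chr2:64989149-64989448 on the plus strand, with the reverse complement of the core 8 bases before an internal start. That of SLC3A2 is chr11:62881449-62881748 on the plus strand, with the reverse complement beginning at position 37 after an internal start. That of SLC7A1 is chr13:29595639-29595938 on the minus strand, with the core beginning at position 8 after the annotated start of the gene.
SLC1A5: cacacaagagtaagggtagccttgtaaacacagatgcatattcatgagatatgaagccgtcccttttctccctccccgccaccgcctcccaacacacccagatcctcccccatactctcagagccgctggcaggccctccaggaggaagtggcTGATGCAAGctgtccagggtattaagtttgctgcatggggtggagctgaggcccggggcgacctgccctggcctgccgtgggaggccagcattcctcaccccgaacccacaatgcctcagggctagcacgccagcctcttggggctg
SLC38A1: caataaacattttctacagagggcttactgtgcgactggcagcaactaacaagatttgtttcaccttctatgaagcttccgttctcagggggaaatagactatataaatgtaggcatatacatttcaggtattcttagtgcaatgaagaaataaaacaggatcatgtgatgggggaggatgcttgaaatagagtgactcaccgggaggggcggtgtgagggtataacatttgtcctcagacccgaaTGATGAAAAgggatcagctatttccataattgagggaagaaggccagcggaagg
SLC1A4: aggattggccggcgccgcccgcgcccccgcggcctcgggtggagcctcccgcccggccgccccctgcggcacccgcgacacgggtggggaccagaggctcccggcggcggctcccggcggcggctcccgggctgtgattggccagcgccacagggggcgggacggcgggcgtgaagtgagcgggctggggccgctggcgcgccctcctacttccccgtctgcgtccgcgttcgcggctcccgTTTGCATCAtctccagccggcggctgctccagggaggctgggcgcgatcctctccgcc
SLC3A2: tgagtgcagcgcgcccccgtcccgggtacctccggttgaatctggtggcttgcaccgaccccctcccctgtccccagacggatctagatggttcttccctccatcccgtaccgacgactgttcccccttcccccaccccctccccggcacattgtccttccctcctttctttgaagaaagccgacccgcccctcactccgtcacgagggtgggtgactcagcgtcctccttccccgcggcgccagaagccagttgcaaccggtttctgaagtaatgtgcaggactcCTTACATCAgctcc
SLC7A1: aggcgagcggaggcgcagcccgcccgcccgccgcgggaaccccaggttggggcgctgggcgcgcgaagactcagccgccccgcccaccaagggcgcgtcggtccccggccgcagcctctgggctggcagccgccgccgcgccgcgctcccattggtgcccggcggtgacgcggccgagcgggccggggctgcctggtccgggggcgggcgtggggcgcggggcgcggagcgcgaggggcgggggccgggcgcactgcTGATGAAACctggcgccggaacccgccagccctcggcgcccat

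The sixth carrier with the core was SLC1A3, which had at most 1 fragment in any library. The core of the antioxidant response element, TGACNNNGC, occurred in windows of 7 of the 40 carriers (17.5%) against 16.1% of all genes, or 11.5% against 13.3% of windows, among them SLC3A2, SLC7A1, SLC7A5 and SLC7A6. The E-box CACGTG, the site bound by MYC, occurred in windows of 10 of the 40 (25%) against 8.77% of all genes, or 16.4% against 7.26% of windows. Of the 19 carriers that rose at both times 15 had a window, and each of the 3 motifs occurred in 5 of these. Of the 8 that fell at both times 7 had a window, which held the C/EBP-ATF core and the antioxidant core in 0 and the E-box in 1. The split by direction was thus alike for the 3 motifs. No match of one motif overlapped a match of another. These are counts of letters in short windows and do not show binding. SLC7A11, SLC7A2, SLC38A3 and SLC1A2, which also rose at both times, had no window given.

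Before the carriers are described, the identity of the cells was checked. All 10 HepG2 markers, among them ALB, APOA1 and HNF4A, passed the abundance filter, with ALB at 3831 ± 69.9 FPKM (fragment number divided by gene length and library depth, SD, n = 3) in cells with Gln. The endothelial and fibroblast markers in the table, PECAM1, VWF, COL1A1 and COL1A2, had group means of at most 0.286 FPKM. Of the 10 HepG2 markers, 7 were lower at 12 h (ALB, AFP, APOA1, APOA2, SERPINA1, GPC3 and TF). At 24 h 5 were lower (ALB, AFP, APOA1, SERPINA1 and TF), and 0 were higher at either time. Of all genes tested, 31.0% were lower and 29.1% higher at 12 h, and 31.7% lower and 33.0% higher at 24 h. The median log2 fold change of the HepG2 markers was -0.18 and -0.13, and their part in the carriers' values was not tested. The libraries held 29618604 to 36258158 fragments on genes.

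With Gln present, the carriers spanned the whole range from 107 FPKM to 0. SLC38A2, a sodium-driven carrier of small neutral amino acids, stood highest at 107 ± 2.28 FPKM (SD, n = 3 here and throughout), followed by SLC7A5, the large neutral exchanger, at 83.7 ± 1.79 and the heavy chain SLC3A2 at 66.8 ± 2.12 FPKM. The library ranges of these 3 carriers did not overlap, nor did that of SLC3A2 overlap the next in order, SLC1A5, at 39.0 ± 1.36 FPKM. The first 3 took 43.4% of the summed FPKM of all 52 carriers. SLC38A3 at 30.7 ± 1.37 and SLC38A10 at 29.5 ± 0.725 FPKM overlapped in their ranges and are not ordered. The lengths behind the FPKM differ from the exonic bases of GENCODE v44 for some carriers. Among the highest, SLC3A2 had 2440 bases against 6392, SLC38A2 4795 against 6509, SLC7A5 5366 against 4764 and SLC1A5 3157 against 3332. Lower in the order, SLC36A1 had 16719 against 6971 and SLC6A11 16851 against 6680. The order of levels and the share of the first 3 thus rest on the lengths used. A further 10 carriers lay between SLC43A1 at 28.7 FPKM and SLC7A11 at 10.0 FPKM, 14 lay from 1 to under 10 FPKM, 2 from 0.5 to under 1 FPKM and 20 under 0.5 FPKM. The plot of levels by library shows this order and its change on Gln removal.

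**Figure D1:**
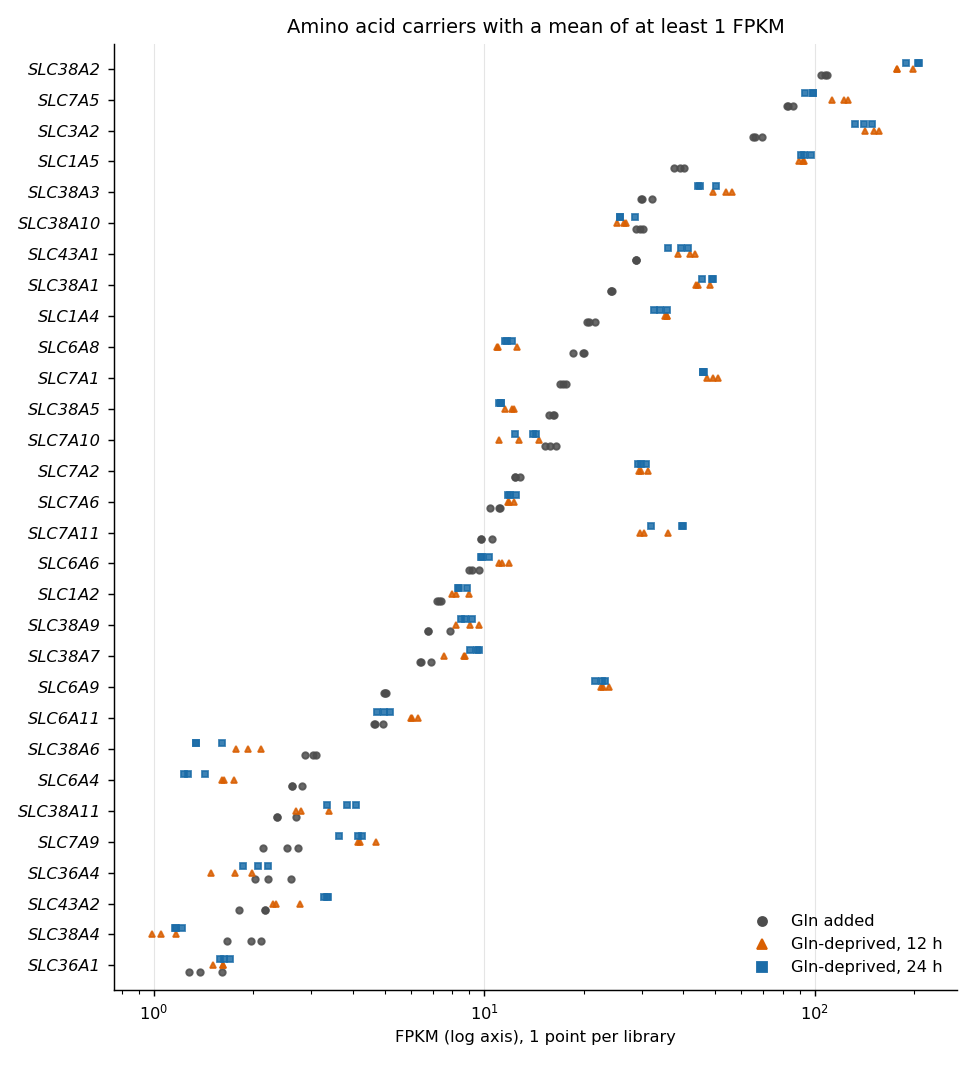
FPKM of the 30 carriers averaging 1 FPKM or more across all libraries, on a log axis, 1 point per library and ordered by the level with Gln added. Points of the deprived groups lie to the right of those with Gln for SLC7A1, SLC7A2, SLC7A11 and SLC6A9, and to the left for SLC38A6 and SLC6A4.

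The summed FPKM of the 52 carriers rose from 594 ± 6.49 with Gln to 995 ± 6.84 at 12 h and 974 ± 1.46 at 24 h. Of the 52, 33 averaged 0.5 FPKM or more across the 9 libraries and were tested with limma, with p-values adjusted by the Benjamini-Hochberg method over all 11880 genes tested. At 12 h, 21 carriers rose (63.6% of 33, against 29.1% of all genes tested) and 9 fell (27.3%, against 31.0%). At 24 h, 20 rose (60.6%, against 33.0%) and 8 fell (24.2%, against 31.7%). A rise of at least 1 on the log2 scale was met by 6 carriers at 12 h (18.2%, against 2.00% of all genes) and by 6 at 24 h (18.2%, against 3.21%), in each case SLC1A5, SLC3A2, SLC6A9, SLC7A1, SLC7A2 and SLC7A11. At 12 h, 0 carriers fell by that much, against 1.94% of all genes, and 1, SLC38A6, did at 24 h (3.03%, against 2.83%). The median log2 fold change of the 33 carriers was 0.32 at 12 h and 0.30 at 24 h, beside -0.02 and 0.01 over all genes tested. SLC1A7 had 0.357 FPKM with Gln and passed the filter only through its level in the deprived cells, so its rise was favoured by the filter.

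Of the 33 tested carriers, 19 rose at both times (57.6%, against 25.9% of all genes tested), 8 fell at both times (24.2%, against 25.7%) and 0 moved in opposite directions. The libraries of the deprived and supplied groups did not overlap for 31 carriers at 12 h (22 higher and 9 lower) and for 29 at 24 h (21 higher and 8 lower). Over all genes tested, 67.2% did not overlap at 12 h and 69.9% at 24 h. Both times were compared with the same 3 libraries of cells with Gln, so the values of the comparisons are not independent of each other.

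**Figure D2:**
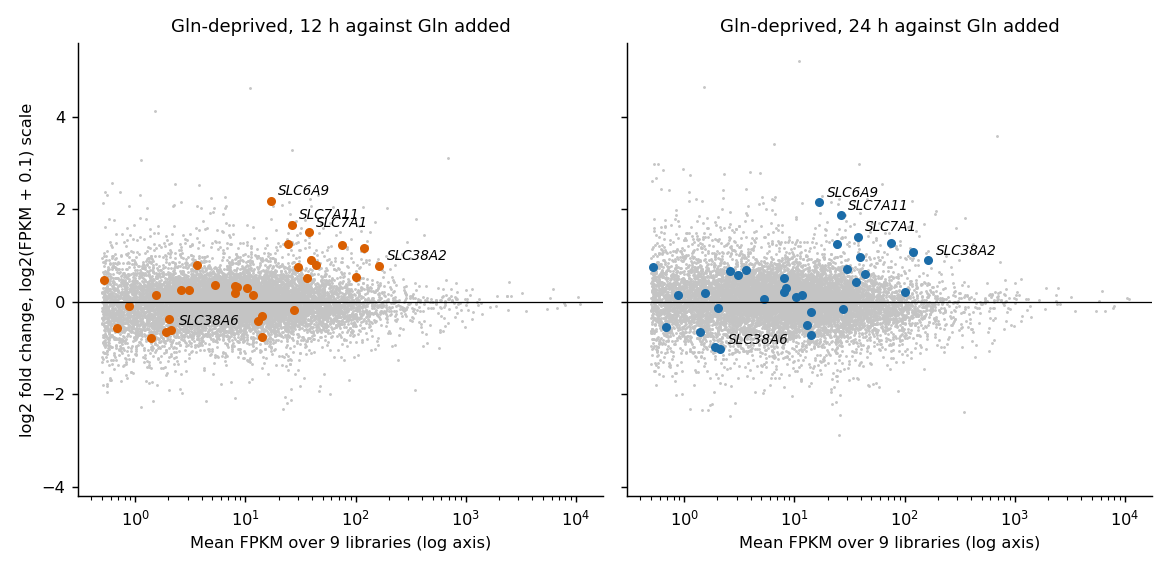
Log2 fold change against Gln added, on the log2(FPKM + 0.1) scale, plotted over the mean FPKM of the 9 libraries for the 33 tested carriers (coloured) and all 11880 genes tested (grey), at 12 h and at 24 h. SLC6A9 and SLC7A11 stand above most genes of like abundance, and SLC38A6 lies below 0.

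The Gln carriers did not all move the same way. The role group of Gln and small neutral amino acid carriers held SLC1A4, SLC1A5 and every SLC38 member but SLC38A9. It thus takes in SLC38A6, SLC38A10 and SLC38A11, for which no substrate is given here. Of this group 11 were tested, of which 6 rose and 4 fell at 12 h and 7 rose and 4 fell at 24 h. SLC38A6 and SLC38A10 are among those that fell. Beside these counts, 29.1% of all genes tested rose and 31.0% fell at 12 h, and 33.0% rose and 31.7% fell at 24 h. SLC1A5, the sodium-dependent neutral amino acid exchanger that is a main entry route of Gln in tumour cells, had 40.3, 39.1 and 37.6 FPKM with Gln, 92.3, 92.7 and 89.6 at 12 h and 97.6, 93.1 and 90.9 at 24 h. All 6 deprived libraries were more than double every library with Gln. Its log2 fold change was 1.23 ± 0.04 (SE) at 12 h (adjusted p = 2.2e-09) and 1.26 ± 0.04 at 24 h (adjusted p = 1.3e-09). SLC1A4, the related exchanger of alanine, serine and cysteine, rose by 0.76 ± 0.04 and 0.70 ± 0.04.

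SLC38A2, the system A carrier, had 107, 105 and 109 FPKM with Gln, 177, 178 and 198 at 12 h and 189, 205 and 207 at 24 h. The groups with and without Gln were apart, and 12 h replicate 3 lay inside the range of the 24 h libraries. The log2 fold change was 0.78 ± 0.05 (adjusted p = 4.3e-07) and 0.90 ± 0.05 (adjusted p = 9.7e-08). SLC38A1, another system A carrier, had 24.2, 24.3 and 24.4 FPKM with Gln, 44.4, 43.7 and 48.3 at 12 h and 45.6, 49.1 and 49.0 at 24 h. Its 3 libraries with Gln were nearly equal and lay below all 6 deprived ones. It rose by 0.90 ± 0.05 (adjusted p = 6.8e-08) and 0.98 ± 0.05 (adjusted p = 2.3e-08). SLC38A3, a system N carrier of Gln, histidine and asparagine that is abundant in liver, had 29.7, 32.3 and 30.1 FPKM with Gln, 54.0, 56.3 and 49.1 at 12 h and 44.2, 50.1 and 45.1 at 24 h. It was higher in every deprived library, and the 12 h and 24 h libraries overlapped. The rise was 0.79 ± 0.06 (adjusted p = 1.8e-06) at 12 h and 0.60 ± 0.06 (adjusted p = 1.1e-05) at 24 h.

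SLC38A5, the other system N carrier, went the opposite way. It had 15.7, 16.2 and 16.1 FPKM with Gln, 12.1, 12.3 and 11.6 at 12 h and 11.2, 11.2 and 11.1 at 24 h. Every deprived library was below every library with Gln, by -0.41 ± 0.04 on the log2 scale at 12 h (adjusted p = 8.0e-06) and -0.51 ± 0.04 at 24 h (adjusted p = 1.1e-06). The 2 system N carriers thus had log2 fold changes of opposite sign at both times. SLC38A6, a less studied family member, had 3.04, 2.87 and 3.10 FPKM with Gln, 1.77, 1.93 and 2.11 at 12 h and 1.34, 1.61 and 1.34 at 24 h. The 3 groups did not overlap, and the level stepped down at each time. The log2 fold change was -0.61 ± 0.10 (adjusted p = 0.00027) at 12 h and -1.02 ± 0.10 (adjusted p = 4.5e-06) at 24 h, just past the limit of 1, and whether it counted as past that limit depended on the pseudocount, the scaling and the libraries used.

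SLC38A7, which is described at the lysosome as an exporter of Gln and asparagine, had 6.38, 6.89 and 6.42 FPKM with Gln, 8.77, 8.70 and 7.58 at 12 h and 9.51, 9.62 and 9.05 at 24 h. The 3 groups did not overlap. It rose by 0.34 ± 0.06 (adjusted p = 0.00086) and 0.51 ± 0.06 (adjusted p = 3.9e-05), while the difference between the times did not pass the test (adjusted p = 0.083). SLC38A4, a system A carrier of liver, fell by -0.78 ± 0.11 and -0.65 ± 0.11 from 1.92 ± 0.232 FPKM, and the orphan SLC38A10 by -0.18 ± 0.05 and -0.15 ± 0.05 from 29.5 FPKM. The 24 h call of SLC38A10 was lost without Gln-added replicate 1 or 2 and without 24 h replicate 2 or 3 (adjusted p = 0.0544 to 0.0834). SLC38A11 had risen after 24 h, by 0.58 ± 0.10 (adjusted p = 0.00058), and its 12 h value of 0.25 ± 0.10 did not pass (adjusted p = 0.063).

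SLC38A1, SLC38A2 and SLC38A4 are neighbours on the minus strand of chromosome 12 of GRCh38, at 46183063 to 46270017, 46358188 to 46372773 and 46764761 to 46832408 in GENCODE v44. The first 2 rose and the third fell at both times, so the members of the cluster differed in direction.

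Carriers of glutamate and aspartate were few in these cells. SLC1A1 and SLC1A3, which carry glutamate into many epithelial and glial cells, had at most 1 fragment in any library. SLC1A2, best known as the astrocyte glutamate carrier, had 7.31 ± 0.106 FPKM with Gln and had risen by 0.20 ± 0.05 after 12 h (adjusted p = 0.0092) and 0.22 ± 0.05 at 24 h (adjusted p = 0.0046). SLC1A7, first described in retina, rose by 0.48 ± 0.19 (adjusted p = 0.046) and 0.76 ± 0.19 (adjusted p = 0.0043). It had 38 to 61 fragments per library with Gln, so these rises rest on little depth. Its 12 h call was lost under some alternatives, among them a pseudocount of 1 and leaving out Gln-added replicate 3 or 12 h replicate 3.

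Heavy and light chains gave the second block of large rises. SLC3A2, the heavy chain that carries most SLC7 exchangers to the membrane, had 66.2, 69.2 and 65.1 FPKM with Gln, 157, 151 and 142 at 12 h and 149, 133 and 141 at 24 h. Every deprived library lay far above those with Gln. It rose by 1.16 ± 0.05 (adjusted p = 2.1e-08) and 1.07 ± 0.05 (adjusted p = 2.3e-08). SLC7A11, the cystine and glutamate exchanger that feeds glutathione synthesis by exporting glutamate, had 10.6, 9.75 and 9.78 FPKM with Gln, 30.4, 29.6 and 36.0 at 12 h and 32.0, 39.7 and 40.0 at 24 h. Its mean at 24 h was 3.71 times the level with Gln, and the highest 12 h library exceeded the lowest 24 h library. It rose by 1.66 ± 0.09 (adjusted p = 1.5e-07) and 1.88 ± 0.09 (adjusted p = 3.7e-08). SLC7A11-AS1, whose exons lie opposite part of SLC7A11, had 0 to 14 fragments per library against 3319 to 13588 for SLC7A11. The methods describe libraries that keep the strand while the labels name another kit, and how the counting used strand is not given, so reads of a carrier and of a gene opposite it may not have been told apart.

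SLC7A11 and SLC38A2 shared an arrangement within the deprived groups, with the highest 12 h value in replicate 3 and the lowest 24 h value in replicate 1. This was not particular to them, as SLC38A1, SLC38A6, SLC38A9, SLC7A2, SLC1A2 and SLC36A4 had it too. Across all 11880 genes tested, the deviations of 12 h replicate 3 from its group mean were correlated with those of 24 h replicates 2 (r = 0.296) and 3 (r = 0.283) and inversely with those of 24 h replicate 1 (r = -0.467), as a description over genes, which are not independent replicates. The part of this arrangement in the carriers' values was not tested. SLC7A11 was 0.21 ± 0.09 higher at 24 h than at 12 h (adjusted p = 0.14), 0.30 without 12 h replicate 3 (adjusted p = 0.043) and 0.32 without 24 h replicate 1 (adjusted p = 0.017). SLC38A2 was 0.12 ± 0.05 higher (adjusted p = 0.12), 0.17 without 12 h replicate 3 (adjusted p = 0.025) and 0.16 without 24 h replicate 1 (adjusted p = 0.042). Whether either carrier went on rising after 12 h thus turned on single libraries, whereas its rise against cells with Gln did not.

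SLC7A5, the exchanger that imports leucine and other large neutral amino acids against Gln, had 82.5, 85.7 and 82.8 FPKM with Gln, 122, 126 and 113 at 12 h and 98.6, 98.8 and 93.5 at 24 h. The 3 groups did not overlap, with 12 h highest. The log2 fold change was 0.53 ± 0.04 at 12 h (adjusted p = 3.2e-06) and 0.21 ± 0.04 at 24 h (adjusted p = 0.0017), and the 24 h level was -0.31 ± 0.04 from that at 12 h (adjusted p = 0.00087). Pseudogene copies of SLC7A5 are annotated and not listed in the table, so reads shared with them could be counted either way. SLC7A6, a light chain that exchanges cationic for neutral amino acids, rose by 0.14 ± 0.04 and 0.15 ± 0.04. These small rises did not pass without Gln-added replicate 1 (adjusted p = 0.0875 and 0.0625), nor the first without 12 h replicate 1 (adjusted p = 0.0733). Some 55.6% of its exonic bases lie opposite other genes, mainly SLC7A6OS, which had 555 to 731 fragments per library. SLC7A10, a light chain for small neutral amino acids known from brain, fell by -0.31 ± 0.09 and -0.22 ± 0.09 from 15.9 ± 0.608 FPKM, the latter at an adjusted p of 0.0495. The 24 h call of SLC7A10 was lost without any one library of cells with Gln, without 12 h replicate 2 and without 24 h replicate 2 or 3 (adjusted p = 0.0655 to 0.167). LRP3, opposite 6.46% of its exonic bases, had 1750 to 2581 fragments per library. SLC7A9, the light chain of SLC3A1 in kidney, rose by 0.80 ± 0.10 and 0.69 ± 0.10 from 2.46 ± 0.301 FPKM, while SLC3A1 itself stayed at group means of 0.0835 to 0.196 FPKM.

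The ratio of SLC3A2 to the summed FPKM of its light chains SLC7A5, SLC7A6, SLC7A7, SLC7A8, SLC7A10 and SLC7A11 was 0.554, 0.562 and 0.547 in the libraries with Gln, 0.871, 0.837 and 0.826 at 12 h and 0.945, 0.814 and 0.885 at 24 h. Heavy-chain RNA thus rose more than the summed light-chain RNA, with no overlap between the groups with and without Gln. This does not hold for each light chain. SLC7A11 rose more than SLC3A2, to 3.195 and 3.713 times the level with Gln against 2.245 and 2.107 times. SLC7A5 and SLC7A6 rose less, and SLC7A10 fell. The mean ratio was 0.554 ± 0.00732 with Gln, 0.845 ± 0.0236 at 12 h and 0.881 ± 0.0657 at 24 h, with an exact permutation p of 0.1 for each time against Gln (two-sided, n = 3 against 3, the smallest p this design allows) and of 0.5 between the times. Within the light chains, the share of SLC7A11 went from 8.32% ± 0.469 with Gln to 18.1% ± 2.49 and 23.2% ± 2.58, and the share of SLC7A5 from 69.4% ± 0.288 to 67.9% ± 2.19 and 60.6% ± 1.97.

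**Figure D3:**
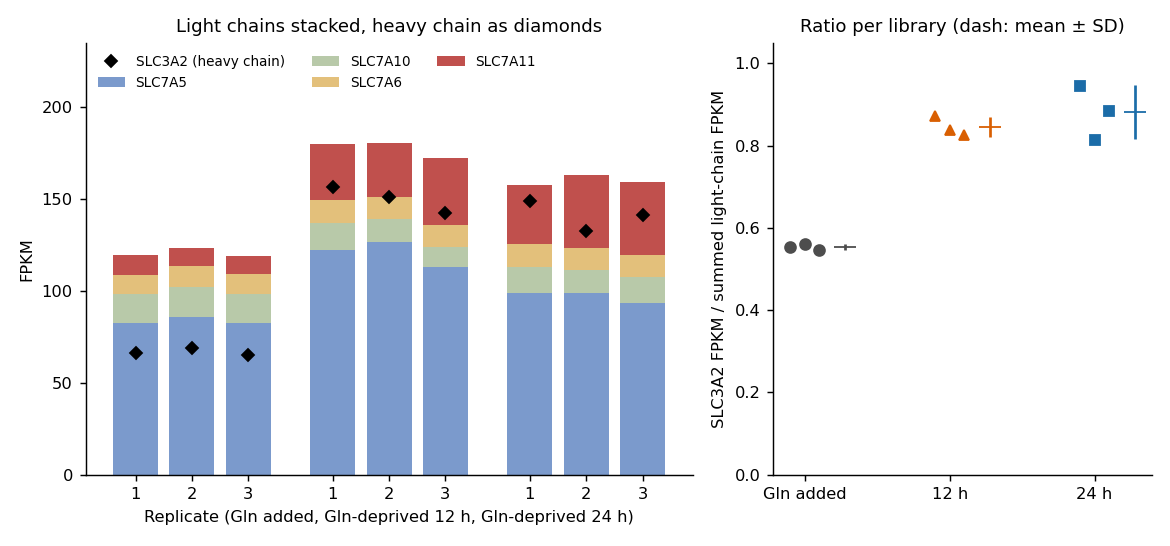
Left, FPKM of the light chains SLC7A5, SLC7A10, SLC7A6 and SLC7A11 stacked per library, with SLC3A2 as diamonds; SLC7A7 and SLC7A8 had group means of at most 0.137 FPKM and are not drawn. Right, the ratio of SLC3A2 to the summed light chains per library with mean and SD, between 0.547 and 0.562 with Gln and between 0.814 and 0.945 without.

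Both cationic amino acid carriers detected above the filter rose past 1 on the log2 scale at both times. SLC7A1, the general importer of arginine and lysine, had 17.3, 17.7 and 16.9 FPKM with Gln, 51.1, 49.4 and 47.2 at 12 h and 46.2, 45.8 and 45.8 at 24 h. No deprived library was below 45.8 FPKM, and none with Gln was above 17.7. It rose by 1.50 ± 0.04 (adjusted p = 4.2e-10) and 1.40 ± 0.04 (adjusted p = 5.3e-10). SLC7A2, the cationic carrier prominent in liver, had 12.4, 12.9 and 12.4 FPKM with Gln, 29.4, 29.8 and 31.3 at 12 h and 29.2, 29.8 and 30.8 at 24 h. The 12 h and 24 h libraries overlapped and lay far above the libraries with Gln. It rose by 1.26 ± 0.04 (adjusted p = 2.2e-09) and 1.25 ± 0.04 (adjusted p = 1.6e-09), with a difference of -0.01 ± 0.04 between the times. SLC7A3 and SLC7A14, the remaining cationic members, had at most 4 fragments in any library. The summed FPKM of the cationic carriers went from 29.8 ± 0.648 to 79.4 ± 1.00 and 75.9 ± 0.650, a ratio of 2.66 at 12 h, the highest of the 7 role groups.

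Among the SLC43 facilitators, which move large neutral amino acids down their gradient, SLC43A1 had 28.7 ± 0.00601 FPKM with Gln and rose by 0.52 ± 0.06 (adjusted p = 1.8e-05) and 0.43 ± 0.06 (adjusted p = 5.1e-05). SLC43A2 was lower, at 2.05 ± 0.209 FPKM with Gln, 2.46 ± 0.260 at 12 h and 3.33 ± 0.0404 at 24 h. It rose by 0.25 ± 0.09 (adjusted p = 0.037) and then stood 0.67 ± 0.09 above the level with Gln (adjusted p = 8.9e-05). The 12 h call of SLC43A2 was lost without Gln-added replicate 1 (0.17, adjusted p = 0.147), without 12 h replicate 2 (0.17, adjusted p = 0.145) and without 24 h replicate 3 (adjusted p = 0.0506). SLC43A3, an orphan in amino acid transport, stayed under the filter.

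The carriers grouped as lysosomal and proton-coupled, SLC38A9, SLC36A1 and SLC36A4, moved little. SLC38A7, also described at the lysosome, is counted with the Gln carriers and rose by 0.34 and 0.51. SLC38A9, the lysosomal arginine sensor that signals to mTORC1, had 6.78, 6.75 and 7.90 FPKM with Gln, 9.08, 8.19 and 9.62 at 12 h and 8.53, 8.76 and 9.17 at 24 h. The deprived libraries lay above those with Gln by a narrow margin. It rose by 0.32 ± 0.08 (adjusted p = 0.0034) and 0.30 ± 0.08 (adjusted p = 0.0045). SLC36A1, the proton-coupled carrier of small amino acids at the lysosome, had 1.38, 1.61 and 1.28 FPKM with Gln, 1.62, 1.51 and 1.62 at 12 h and 1.59, 1.70 and 1.63 at 24 h. The groups overlapped at both times, and the differences of 0.15 ± 0.10 and 0.19 ± 0.10 did not pass the test (adjusted p = 0.22 and 0.10). SLC36A4, a high-affinity carrier of proline and tryptophan, was -0.37 ± 0.12 at 12 h (adjusted p = 0.023) and -0.14 ± 0.12 at 24 h (adjusted p = 0.33). Its 12 h call was lost without Gln-added replicate 3 (-0.28, adjusted p = 0.0954), without 12 h replicate 1 (-0.27, adjusted p = 0.0895) and with no abundance filter (adjusted p = 0.064).

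The SLC6 family of sodium- and chloride-coupled carriers held the largest rise and several falls. Of its 17 genes, 7 were tested, of which 3 rose and 3 fell at 12 h and 1 rose and 3 fell at 24 h. The shares over all genes tested were 29.1% and 31.0% at 12 h and 33.0% and 31.7% at 24 h. SLC6A9, the glycine carrier, had 4.97, 5.04 and 5.01 FPKM with Gln, 23.9, 22.9 and 22.6 at 12 h and 22.7, 23.2 and 21.6 at 24 h. Its level was 4.62 times that with Gln at 12 h and 4.50 times at 24 h, the largest ratio among the tested carriers at either time. The log2 fold change was 2.18 ± 0.04 (adjusted p = 8.9e-11) and 2.15 ± 0.04 (adjusted p = 1.0e-10), ranking 17 from the top of the 11880 genes at 12 h and 36 at 24 h. SLC6A9 had 685 to 3227 fragments per library, and 7.87% of its exonic bases lie opposite CCDC24, which had 42 to 121 fragments.

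The falls in SLC6 were in carriers of creatine and monoamines. SLC6A8, the creatine carrier, went from 19.5 ± 0.861 FPKM to 11.5 ± 0.944 and 11.8 ± 0.289, a change of -0.76 ± 0.06 (adjusted p = 1.7e-06) and -0.72 ± 0.06 (adjusted p = 1.7e-06). It has an annotated pseudogene copy, SLC6A10P, that is not listed in the table. SLC6A4, the serotonin carrier, fell by -0.66 ± 0.08 and -0.98 ± 0.08 from 2.69 ± 0.108 FPKM, and SLC6A2, the noradrenaline carrier, by -0.57 ± 0.14 and -0.55 ± 0.14 from 0.894 ± 0.0704 FPKM, with 28.6% of its exonic bases shared with another gene on the same strand. SLC6A6, the taurine carrier, and SLC6A11, a carrier of gamma-aminobutyrate, rose at 12 h by 0.30 ± 0.05 (adjusted p = 0.00028) and 0.36 ± 0.06 (adjusted p = 0.00024), and their 24 h values of 0.11 ± 0.05 and 0.06 ± 0.06 did not pass the test (adjusted p = 0.061 and 0.36). SLC6A12, the betaine carrier, passed at neither time, with -0.09 ± 0.14 and 0.15 ± 0.14.

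**Figure D4:**
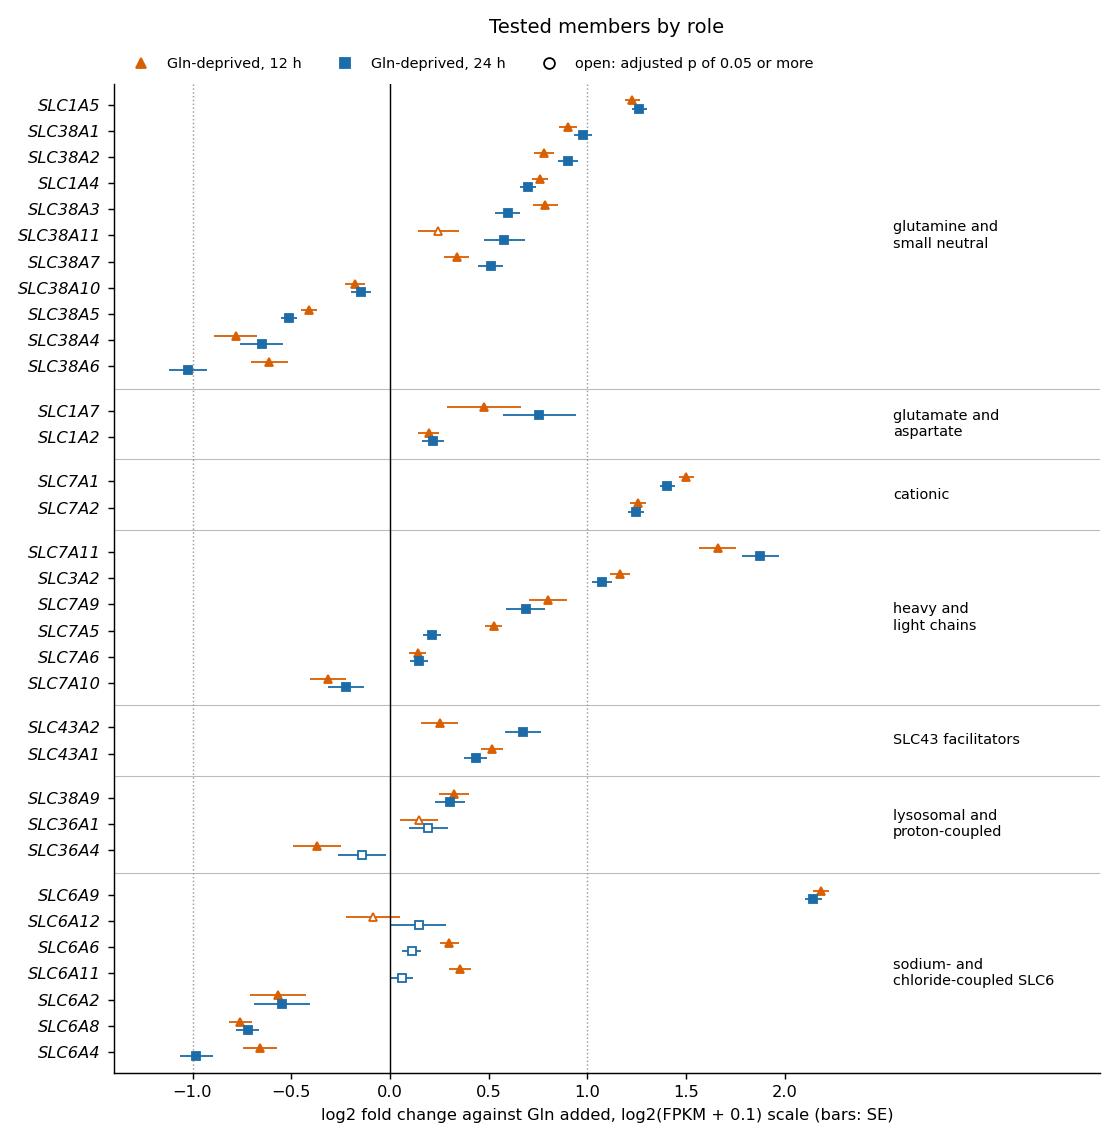
Log2 fold change with SE against Gln added for the 33 tested carriers, grouped by role, at 12 h (triangles) and 24 h (squares), with open symbols for an adjusted p of 0.05 or more. SLC6A9 at 2.18 and 2.15 is the highest, and SLC38A6 at 24 h, -1.02, the lowest.

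The other 19 carriers had a mean under 0.5 FPKM. Of these, 14 had at most 4 fragments in every library, among them 7 of the 17 genes of SLC6 and SLC38A8. The remaining 5 were SLC3A1, SLC6A14, SLC6A16, SLC6A19 and SLC7A7. SLC6A14, a carrier of neutral and cationic amino acids found in mucosa and tumours, had 26 to 50 fragments with Gln, 19 to 38 at 12 h and 58 to 78 at 24 h. SLC6A19, the main neutral carrier of the gut and kidney, had 16 to 26 fragments with Gln, 37 to 56 at 12 h and 28 to 37 at 24 h. These carriers were not part of the test.

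The times were also compared directly. Between 12 h and 24 h, 2 carriers rose (6.06% of 33, against 9.57% of all genes tested) and 5 fell (15.2%, against 10.5%), and the median log2 difference over the 33 was 0.02. The carriers higher at 24 h were SLC43A2 by 0.42 ± 0.09 (adjusted p = 0.010) and SLC38A11 by 0.33 ± 0.10 (adjusted p = 0.046). Lower at 24 h were SLC38A6 by -0.41 ± 0.10 (adjusted p = 0.013), SLC6A4 by -0.32 ± 0.08 (adjusted p = 0.023), SLC7A5 by -0.31 ± 0.04 (adjusted p = 0.00087), SLC6A11 by -0.30 ± 0.06 (adjusted p = 0.0040) and SLC6A6 by -0.19 ± 0.05 (adjusted p = 0.018). SLC38A6 and SLC6A4 had already fallen at 12 h and were lower again at 24 h. SLC7A5, SLC6A6 and SLC6A11 had risen at 12 h and lay nearer to the level with Gln at 24 h. The call of SLC38A11 was lost without any one library but 12 h replicate 3 and 24 h replicate 2 (adjusted p = 0.0519 to 0.152), that of SLC6A4 without 12 h replicate 1 or 2 or 24 h replicate 1 or 3 (adjusted p = 0.0516 to 0.08), and that of SLC6A6 without 12 h replicate 2 or 24 h replicate 2 (adjusted p = 0.0685 and 0.0551). None of the 6 carriers that rose past 1 on the log2 scale differed between the times beyond the test.

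**Figure D5:**
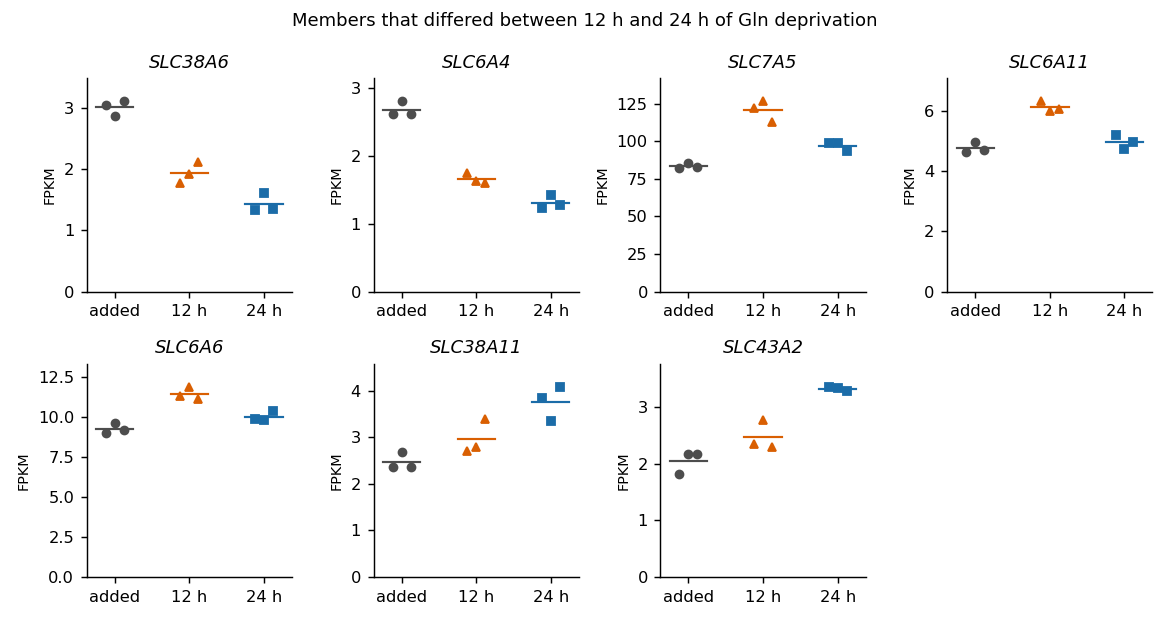
FPKM per library, with group means as lines and axes from 0, for the 7 carriers that differed between 12 h and 24 h. SLC7A5, SLC6A11 and SLC6A6 peak at 12 h, SLC38A6 and SLC6A4 step down at each time, and SLC38A11 and SLC43A2 have their highest means at 24 h.

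Amino acid and peptide carriers outside the 7 families were 11 genes, of which 5 passed the filter. At 12 h, 3 rose and 1 fell, and at 24 h, 3 rose and 0 fell, with median log2 fold changes of 0.20 and 0.27. Of all genes tested, 29.1% rose and 31.0% fell at 12 h, and 33.0% rose and 31.7% fell at 24 h. The 3 that rose are lysosomal, CTNS, the cystine exporter, by 0.60 and 0.72, SLC66A1, an exporter of cationic amino acids, by 0.26 and 0.32, and MFSD12, a cysteine importer, by 0.20 and 0.27. SLC17A5, the lysosomal sialic acid exporter, fell by -0.24 at 12 h.

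A list of 19 regulators and partners of the carriers held 16 tested genes, of which 8 rose and 5 fell at 12 h and 9 rose and 5 fell at 24 h, beside the same shares of all genes, 29.1% and 31.0% at 12 h and 33.0% and 31.7% at 24 h. ATF4, the amino acid response factor, went from 41.9 ± 0.751 FPKM to 77.4 ± 2.01 and 75.5 ± 1.06, a rise of 0.88 and 0.85. NFE2L2, which drives antioxidant genes, rose by 0.51 and 0.45. MYC, known to drive Gln carrier genes, had risen by 1.08 after 12 h and by 0.82 after 24 h, and was the one gene of these lists past a log2 fold change of 1. Among the Rag GTPases and Ragulator subunits that couple lysosomal amino acids to mTORC1, RRAGB, RRAGC and LAMTOR3 rose and RRAGA, LAMTOR1, LAMTOR2 and LAMTOR4 fell at both times, while LAMTOR5 did not pass at either. ARL6IP5, an inhibitor of the glutamate carrier SLC1A1, fell by -0.78 and -0.58. These are RNA levels of the regulators and do not measure their protein or activity.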

How the data were processed

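RNA-seq of 9 HepG2 libraries, 3 per group, was analysed. According to the study's methods, the authors aligned paired reads to GRCh38 with STAR and tested with DESeq2, while the submitters' processing notes name HTSeq and R 3.2.0. The values deposited by the authors are FPKM for each gene in each library, and no further scaling is stated. All columns were matched to libraries by the labels (0 unmapped). The library kit differs between the labels and the methods, and the strand setting of the counting is not given in the sources used here. The knockdown libraries were not analysed here.

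FPKM were tested with limma 3.58.1 in R 4.3.3 (lmFit, then moderated variances with an abundance trend) after taking log2(FPKM + 0.1). The 3 groups shared 1 fit. Only the 11880 genes averaging 0.5 FPKM or more were tested, and their p-values were adjusted together by the Benjamini-Hochberg method. A call is an adjusted p under 0.05. Fold changes on this scale understate the change of low genes. Whole fragments were recovered from the FPKM steps for 100% of 22587 genes (tolerance 0.02), as the smallest whole numbers that fit, and they sum to 99.991% of the solved library totals. All replicate pairs differed by more than sampling noise (chi-square per degree of freedom 2.88 to 14.4). Methods were tested on simulated data.

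The carriers and lists were chosen with earlier results of these data known. Every carrier averaging 1 FPKM or more is described. Values in every library are given for carriers past a log2 fold change of 1 and for chosen Gln, cystine, cationic, large neutral, glutamate and lysosomal carriers with at least 1 FPKM. Of the other lists, genes past a log2 fold change of 1 were to be named, and the others named there were chosen after their values were seen. SLC17A6, SLC32A1, PTPRC, CD3E and KRT5 were not analysed here. Loci and overlaps are from GENCODE v44. Alternatives were other pseudocounts, filters, scalings and variance models, only the groups compared, the replicate number as a block, voom on recovered fragments, and leaving out each library.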

Additional observations from a re-analysis of the deposited data

Results flagged for a closer look

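The effect of Gln deprivation differed between 12 h and 24 h for 7 carriers, by limma's direct test of 24 h against 12 h. On the log2 scale the 24 h level was lower by -0.41 for SLC38A6, -0.32 for SLC6A4, -0.31 for SLC7A5, -0.30 for SLC6A11 and -0.19 for SLC6A6. It was higher by 0.42 for SLC43A2 and 0.33 for SLC38A11. Of the 33 carriers, 2 were thus higher (6.06%, against 9.57% of all genes tested) and 5 lower (15.2%, against 10.5%). SLC7A5, SLC6A11, SLC38A6 and SLC43A2 kept this call under every alternative tried, and SLC38A11, SLC6A4 and SLC6A6 lost it under some.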

How the results depend on the processing

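No log2 fold change of the 30 carriers with at least 1 FPKM changed direction past the threshold under the alternatives: of 1710 recomputed values, 1643 kept their side of the threshold, 44 lost a call and 23 gained one. Carriers lower by at least 1 on the log2 scale at 24 h numbered 1, and 0 with a pseudocount of 1 or FPKM rescaled to the same total, 2 with a pseudocount of 0.01 or voom, and 0 to 2 with a library left out. Carriers higher at 24 h than at 12 h numbered 2, and 1 with only the 2 groups compared or eBayes without a trend, and 1 to 4 with a library left out (4 without 12 h replicate 3); carriers lower numbered 5, and 3 to 7 with a library left out (3 without 12 h replicate 2). Leaving out a library gave 19 to 21 higher and 8 to 9 lower carriers at 12 h, and 19 to 22 higher and 6 to 8 lower at 24 h, with 6 past 1 at 12 h and 6 to 7 at 24 h. The difference in the ratio of SLC3A2 to its light chains, 0.290 at 12 h and 0.327 at 24 h, ranged from 0.277 to 0.300 and from 0.295 to 0.360 with a library left out, from 0.00435 to 0.0700 between the times, and was 0.0941 and 0.0975 per fragment. Among these 30 carriers, calls against Gln that some alternative ended were SLC36A4, SLC43A2 and SLC7A6 at 12 h and SLC38A10, SLC7A10 and SLC7A6 at 24 h. SLC1A7, under 1 FPKM, also lost its 12 h call under some, among them a pseudocount of 1, where carriers higher at 12 h numbered 20. The cause was not tested.

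Replicate numbers were not taken as pairs in the main fit, and groups of 3 cannot decide whether they are. Deviations from group means were correlated by 0.252, -0.136 and 0.283 for the same numbers at 12 h and 24 h. For unlike numbers at these times the range was -0.467 to 0.296. Between cells with Gln and the same number of a deprived group it was -0.033 to 0.062. With the replicate number as a block, 21 carriers were higher and 9 lower at 12 h, 20 and 8 at 24 h, and 2 and 6 between the times. Between the times the block ended the call of SLC38A11 (adjusted p = 0.0501) and gave SLC38A3 (adjusted p = 0.0111) and SLC38A7 (adjusted p = 0.0472) one. Depth limits the 19 carriers under 0.5 FPKM: with no filter, SLC38A8, SLC6A19 and SLC7A8 were called at 12 h, SLC6A14, SLC6A16 and SLC7A8 at 24 h and SLC6A14 between the times.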
